A study of Mus musculus with 20 samples.

Results

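The livers of wild type mice under diet restriction were compared with those of wild type mice on the control diet, as the restricted minus the control value of each gene. The comparison uses 10 of the 20 arrays of the study, 5 wild type mice on restricted food (animals 421 to 425) and 5 wild type mice on the control diet (animals 401 to 405), and was chosen by the group names of the samples alone. All mice were F1 hybrids of C57BL6J and FVB, were 11 weeks old at sampling and ate AIN93G synthetic pellets. Restriction started at 7 weeks of age with 10% less food and reached 30% less at 9 weeks. Wild type mice ate 3.0 g a day on average, and the protocol sets 2.1 g a day as 30% restriction for them. Food was given shortly before the dark phase, and the labels do not give the hour at which livers were taken. The other 10 arrays are from progeroid Ercc1Δ/- littermates, 5 on each diet, which carry 1 truncated and 1 null allele of a DNA repair gene, and they enter here in the fit and in a test of whether the diet effect differed between the genotypes. Each array holds whole-liver RNA of 1 animal.

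Several liver programmes are known to respond to food supply. In mice the pattern of growth hormone release differs between males, which release it in pulses, and females, in which it is more continuous, and through STAT5B this sets many liver genes at different levels in the sexes. Insulin, glucagon and glucocorticoids set the balance between making and burning fat and sugar, and the hour of feeding sets the phase of the liver's circadian clock. Diet restriction is studied because it lengthens the life of many organisms.

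The deposited values are log2 RMA values, the logarithm of normalised array brightness, so a difference of 1 is a doubling. They have no true zero and run from 2.19 to 14.51, and near the lower end a fold is understated. Each of 17097 genes is represented by its brightest probe set, and 8219 of them had a mean under 5 over all arrays. Errors of differences are moderated standard errors (SE), and errors of levels are standard deviations (SD), each with n = 5 per group. A gene is said to have risen or fallen where the limma fit gave a Benjamini-Hochberg adjusted p below 0.05 over all genes. The 16 measured hepatocyte markers averaged between 13.38 and 13.41 in the control livers and between 13.34 and 13.40 in the restricted ones. The labels give no sex. The Y-linked Eif2s3y lay between 9.57 and 10.13 and Xist between 4.00 and 4.50 in all 10 wild type animals. Ercc1 lay between 6.04 and 6.62 in the wild type arrays and between 4.49 and 5.55 in the progeroid arrays. The difference between the 3 prime and 5 prime probe sets of Gapdh, a sign of RNA degradation, was 0.656 ± 0.061 (SD) on the control diet and 0.763 ± 0.12 on the restricted diet (two-sided exact permutation test over 252 assignments, p = 0.111). Without restricted animal 424 the gap between the groups was 0.153 with an exact permutation p of 0.00794, the smallest p that 5 against 4 animals can give. Its part in the results was tested by adding it to the fit as a covariate, which left 1631 rises and 2003 falls.

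Diet restriction changed 3842 of the 17097 genes in wild type livers (22.5% of those tested). Of these 1696 rose (9.92%) and 2146 fell (12.6%). The median rise was 0.43 and the median fall was -0.42 on the log2 scale, while the median difference of all genes was -0.03. Rises of at least 1.5-fold were measured for 488 genes and falls of at least that size for 598. At 4-fold or more there were 39 rises and 44 falls. In 2679 genes (15.7%) the control and the restricted animals did not overlap at all, with 6.9% of all genes higher and 8.77% lower in every restricted animal.

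**Figure D1:**
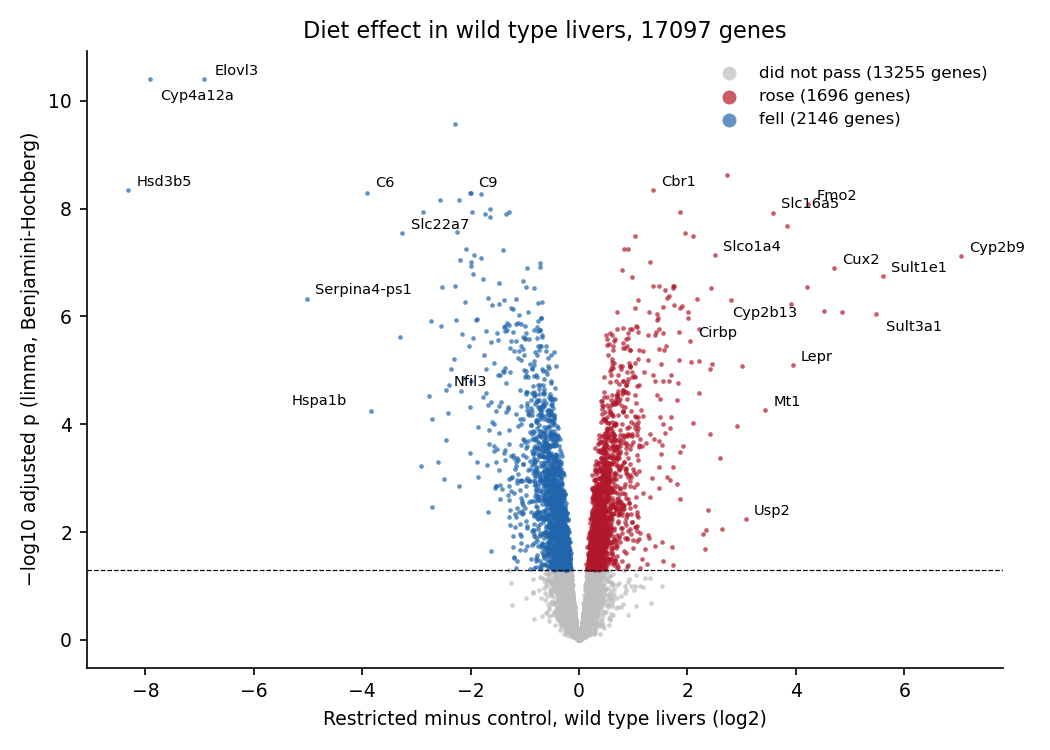
Each point is 1 of 17097 genes, placed by its difference between restricted and control wild type livers (log2, horizontal) and by the negative log10 of its adjusted p (vertical); the dashed line marks an adjusted p of 0.05. The 3 points at the far left are Hsd3b5, Cyp4a12a and Elovl3, and the point at the far right is Cyp2b9.

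Genes that are normally more active in male than in female mouse liver fell together, and they hold the 5 deepest falls with no overlap between the groups. Of 19 measured male-biased genes 15 fell, 0 rose and 4 did not pass the test, with a median difference of -1.96. Hsd3b5, a 3-ketosteroid reductase of male mouse liver, read 12.35, 12.28, 12.33, 12.36 and 12.31 in the control animals. In the restricted animals it read 4.86, 4.26, 3.70, 3.90 and 3.34. Every restricted liver thus fell from among the brightest genes of the array to near its floor, a difference of -8.31 ± 0.55 or 318-fold (adjusted p = 4.52e-09).

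Cyp4a12a, a fatty acid omega-hydroxylase, read 11.37, 11.60, 12.12, 11.46 and 11.42 in control livers. Under restriction it read 3.80, 3.32, 3.54, 4.13 and 3.62. The fall was -7.91 ± 0.38, or 241-fold (adjusted p = 3.89e-11). Elovl3 elongates very long chain fatty acids. It read 11.67, 11.37, 12.01, 11.48 and 12.22 on the control diet and 4.98, 5.09, 4.59, 5.23 and 4.24 on the restricted diet, a fall of -6.92 ± 0.33 (adjusted p = 3.89e-11). The groups of these genes lay more than 6 log2 units apart, and no animal of either diet came close to the other diet.

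Serpina4-ps1, a serpin pseudogene, varied more among the control animals, with 12.41, 10.94, 12.11, 10.63 and 10.23, and read 6.83, 7.41, 5.22, 5.60 and 6.14 under restriction (-5.02 ± 0.49, adjusted p = 4.66e-07). C6, a component of the terminal complement pathway that also belongs to the male-biased genes, fell by 3.91 ± 0.26 on the log2 scale, from levels of 10.40 to 10.70 down to levels of 5.84 to 7.20. The remaining falls were shallower. The steroid enzymes Hsd3b2 and Cyp7b1 fell by 2.21 and 2.10, the P450 Cyp2d9 by 1.96, the organic anion transporter Slco1a1 by 1.93 and the sulfotransferase Sult5a1 by 1.72. Susd4 fell by 2.31 and Nat8, an N-acetyltransferase, by 2.08. Slco1a1 and Cyp2d9 stayed above 10 in every restricted liver, so the male-biased genes did not fall to a common level.

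Genes that are normally more active in female liver moved the other way. Of 22 measured female-biased genes 17 rose, 1 fell and 4 did not pass, and the median difference was 2.15. Cyp2b9, a P450 of female mouse liver, read 3.95, 7.16, 4.13, 4.61 and 3.92 in control livers and 11.84, 11.55, 12.04, 11.77 and 11.83 in restricted livers. Control animal 402 stood apart above the other controls, and all restricted animals stood above it. The rise was 7.05 ± 0.60, or 132-fold (adjusted p = 7.66e-08).

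Sult1e1, the oestrogen sulfotransferase, lay between 4.27 and 4.57 in the control livers and read 8.56, 11.00, 10.67, 9.34 and 10.66 in the restricted ones (5.60 ± 0.51, adjusted p = 1.79e-07). Sult3a1, an amine sulfotransferase, rose from levels of 2.88 to 3.42 to levels of 9.50, 8.73, 6.41, 8.81 and 9.27 (5.48 ± 0.57, adjusted p = 9.13e-07). Both genes were at the floor of the array in every control animal, where a fold is understated. Cyp17a1, the steroid 17-alpha-hydroxylase, read 5.66, 6.39, 6.36, 5.64 and 7.23 on the control diet and 11.19, 10.70, 11.31, 11.11 and 11.23 on the restricted diet, a rise of 4.85 ± 0.50.

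Cux2, a transcription factor that represses male-biased genes in female liver, read 3.95, 4.02, 3.71, 3.75 and 3.75 in control livers. It read 9.01, 8.68, 8.69, 7.61 and 8.66 in restricted livers, a rise of 4.70 ± 0.41 (adjusted p = 1.25e-07), and its second probe set rose by 2.44. Cyp2b13 was less even among the restricted animals. It read 9.33, 6.47, 7.67, 7.51 and 9.81 there and between 3.52 and 3.74 in the controls (4.52 ± 0.46). The same pair of restricted animals, 421 and 425, was also highest for the organic anion transporter Slc22a26, with 7.80 and 7.87 against 5.83 to 5.98 in the other 3 (3.00 ± 0.37), and for its relative Slc22a27, with 9.09 and 8.88 against 7.39 to 7.69.

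Fmo2, a flavin-containing monooxygenase, rose by 4.23 ± 0.30, Acot3, a peroxisomal acyl-CoA thioesterase, by 4.20 ± 0.39, and the peroxisomal fatty acid transporter Abcd2 by 2.09 ± 0.33. None of these overlapped between the diets. The 1 female-biased gene that fell was Ntrk2, a neurotrophin receptor (-0.69 ± 0.23, adjusted p = 0.0393), and it missed the threshold under 9 of 19 alternative settings. Cyp2b9 and Cyp2b13, and the Slc22a family members, have near-identical relatives in the genome, and probes may be shared between them.

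**Figure D2:**
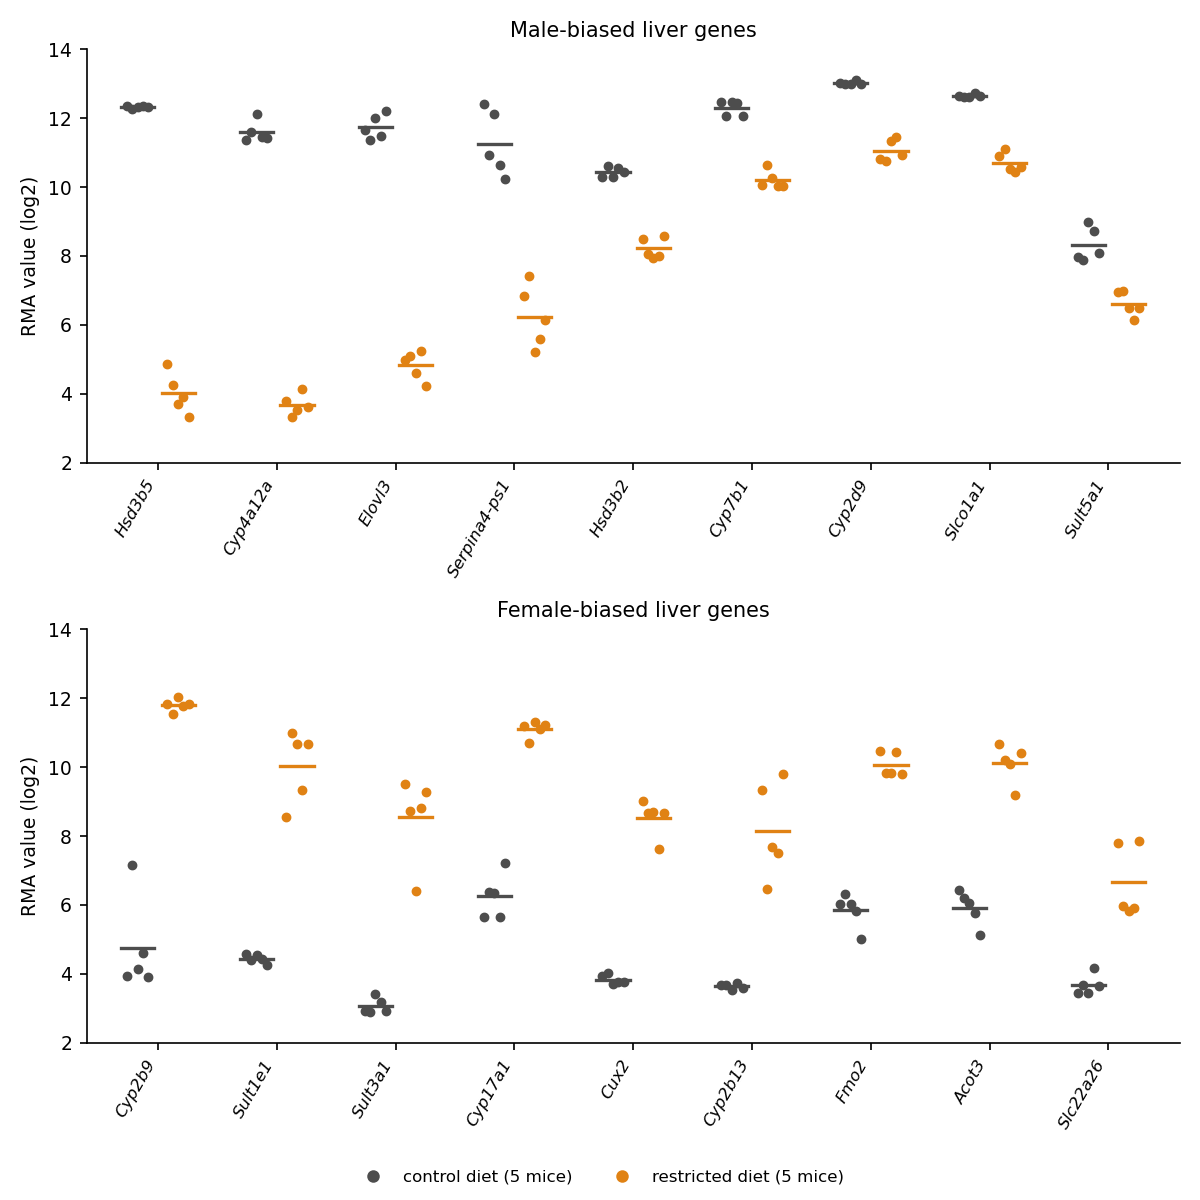
RMA values (log2, vertical) of 9 male-biased genes (upper) and 9 female-biased genes (lower) in each wild type animal, with bars at the group means of 5 mice. Control and restricted animals do not overlap for any of the 18 genes; Hsd3b5 and Cyp4a12a fall to between 3.32 and 4.86 in every restricted animal.

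The growth hormone and IGF1 genes themselves moved by less. Of 19 measured genes 3 rose, 6 fell and 10 did not pass, with a median difference of -0.11. Without control animal 404 or without restricted animal 423 the number that rose was 1. Ghr, the growth hormone receptor, read 12.75, 12.77, 12.70, 12.81 and 12.73 on the control diet and 12.42, 12.19, 11.96, 12.10 and 12.20 on the restricted diet. That is 1.49-fold less (-0.58 ± 0.07, adjusted p = 8.39e-06). Igf1, the growth factor the liver makes under growth hormone, fell by 0.23 ± 0.06 on the log2 scale, from 12.46 to 12.52 in the controls to 12.16 to 12.34 under restriction. Its 4 probe sets all fell. Igfals, which holds IGF1 in a stable complex in blood, fell by 0.68 ± 0.16. The thyroid hormone deiodinase Dio1 fell by 1.56 ± 0.27.

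Bcl6, a repressor that opposes STAT5 at female-biased genes, read 7.50, 8.57, 7.95, 9.87 and 9.56 in the controls and 5.37, 8.39, 4.84, 5.07 and 6.21 under restriction (-2.71 ± 0.63, adjusted p = 0.00344). Restricted animal 422 lay within the range of the controls. Socs2, a target of STAT5 that dampens growth hormone signals, rose by 2.35 ± 0.62 (adjusted p = 0.00915), with controls from 5.90 to 8.80 and restricted animals from 9.42 to 10.62. Cish, another STAT5 target, read 7.27, 6.64, 8.96, 5.59 and 5.18 against 7.80 to 8.28, a difference of 1.31 ± 0.51 that did not pass (adjusted p = 0.0707) and passed without control 403 (1.87, adjusted p = 0.00255). Socs2 and Cish were more spread among the control than among the restricted animals, and Bcl6 was spread on both diets. The binding proteins Igfbp1 (0.89 ± 0.31) and Igfbp2 (0.60 ± 0.19) rose, and they missed the threshold under 9 and 4 of the 19 alternative settings, which included leaving out single animals of either diet.

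The circadian clock of the liver rests on CLOCK and BMAL1 (Arntl), which switch on Per, Cry and Nr1d genes through the E-box and are switched off again by their products. DBP, TEF and HLF act on the D-box, where NFIL3 opposes them, and REV-ERB and ROR proteins compete for a further element. Promoter sequences of 4 clock genes that changed and hold one of these elements are shown, chosen for holding it, because the same elements were searched in all promoters. They come from RefSeq, assembly GRCm38.p6, and are read in the direction of the gene, with the element in capitals and up to 30 bases on either side. Ciart holds 3 E-boxes (CACGTG) 116, 58 and 44 bases before its start, at chr3:95882237-95882374 on the minus strand, Per1 holds 1 E-box 166 bases before its start at chr11:69098753-69098818 on the plus strand, Per3 holds 2 D-boxes (TTATGTAA) 205 and 158 bases before its start at chr4:151044786-151044900 on the minus strand, and Nfil3 holds the complement of the ROR/REV-ERB element (TAGGTCA) 12 bases before its start at chr13:52981015-52981081 on the minus strand.
Ciart: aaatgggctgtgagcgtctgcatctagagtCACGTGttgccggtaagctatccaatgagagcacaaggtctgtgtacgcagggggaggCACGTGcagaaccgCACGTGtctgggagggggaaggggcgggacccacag
Per1: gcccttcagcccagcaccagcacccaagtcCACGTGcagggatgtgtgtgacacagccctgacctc
Per3: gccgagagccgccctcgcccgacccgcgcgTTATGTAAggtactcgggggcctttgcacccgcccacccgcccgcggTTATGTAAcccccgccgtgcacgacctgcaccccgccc
Nfil3: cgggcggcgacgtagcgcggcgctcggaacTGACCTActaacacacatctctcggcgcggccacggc

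The search read the 300 bases from 250 before to 50 after each start on both strands, in 13605 genes with a listed promoter. The E-box was found in 4 of 11 core clock promoters (36.4%) and in 9% of all promoters. The D-box was found in 1 of these 11, that of Per3, and in 0.654% of all. The ROR/REV-ERB element was found in 2 of 12 clock output promoters, Nfil3 and Leo1, and in 2.23% of all. No core clock promoter held this element, and no clock output promoter held the D-box. Among the clock output promoters those of Tef and Ciart held the E-box. A match describes these letters and is not a measurement of binding.

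Genes of the negative limb of the clock were higher in restricted livers. Of 13 measured core clock genes 7 rose, 1 fell and 5 did not pass, and of 13 clock output genes 5 rose, 2 fell and 6 did not pass. Per3 read 6.43, 7.03, 5.89, 7.04 and 5.23 in the controls and 8.85, 9.14, 8.50, 8.34 and 8.84 under restriction (2.41 ± 0.39, adjusted p = 1.55e-04). Cry2 read 6.98, 7.39, 7.09, 7.50 and 7.14 in the controls and 8.26, 8.20, 8.39, 7.90 and 7.99 under restriction (0.93 ± 0.11, adjusted p = 7.39e-06). Per3 and Cry2 were thus separated between the diets in every animal. Clock, which encodes the activator, fell by 0.95 ± 0.13, from levels of 8.04 to 8.41 down to levels of 6.76 to 7.61, with 3 further probe sets that also fell. Nfil3 read 7.32, 8.03, 8.38, 8.41 and 9.04 in the controls and 6.27, 5.73, 5.76, 5.45 and 5.67 under restriction, a fall of 2.46 ± 0.34 (adjusted p = 2.34e-05).

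Other clock genes were uneven among the control animals. Usp2, a deubiquitinase driven by the clock, read 7.60, 7.97, 5.28, 8.54 and 4.44 in controls 401 to 405 and 10.52, 10.04, 9.75, 9.22 and 9.66 in restricted animals (3.07 ± 0.76, adjusted p = 0.00566). Ciart, a repressor of CLOCK and BMAL1, read 6.66, 6.19, 3.88, 7.53 and 3.71 against 8.63, 8.31, 7.41, 7.37 and 7.66 (2.28 ± 0.62). Arntl showed the mirror image, with 5.09, 5.40, 7.03, 5.69 and 8.17 in the controls and 4.20, 4.83, 7.08, 5.78 and 5.38 under restriction (-0.82 ± 0.65, adjusted p = 0.411). Controls 403 and 405 had the lowest Usp2, Ciart, Per1 and Dbp and the highest Arntl of the control group, so the controls differed among themselves in these genes.

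Because of this, the fit was repeated without animals 403 and 405, a choice made after the data were seen. The core clock genes that rose then numbered 3 and the clock output genes 2, with 1421 rises and 1659 falls over all genes. Usp2 (1.80, adjusted p = 0.082), Per1 (0.83, adjusted p = 0.181) and Ciart (1.08, adjusted p = 0.148) no longer passed, and Arntl stood at 0.06. Per2, which rose by 1.24 ± 0.43, missed the threshold under 10 of the 19 alternative settings. Per3, Cry2, Clock and Nfil3 passed under all 19. Wee1, a cell cycle kinase under clock control, rose by 1.34 ± 0.27 and Cry1 by 1.07 ± 0.28. Leo1 fell by 1.15 ± 0.27. Dbp read 9.40, 9.33, 8.03, 9.58 and 7.31 in the controls and 9.28 to 10.31 under restriction and did not pass (adjusted p = 0.119). The hour of sampling is not in the labels, so the part of circadian phase in these differences was not tested.

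**Figure D3:**
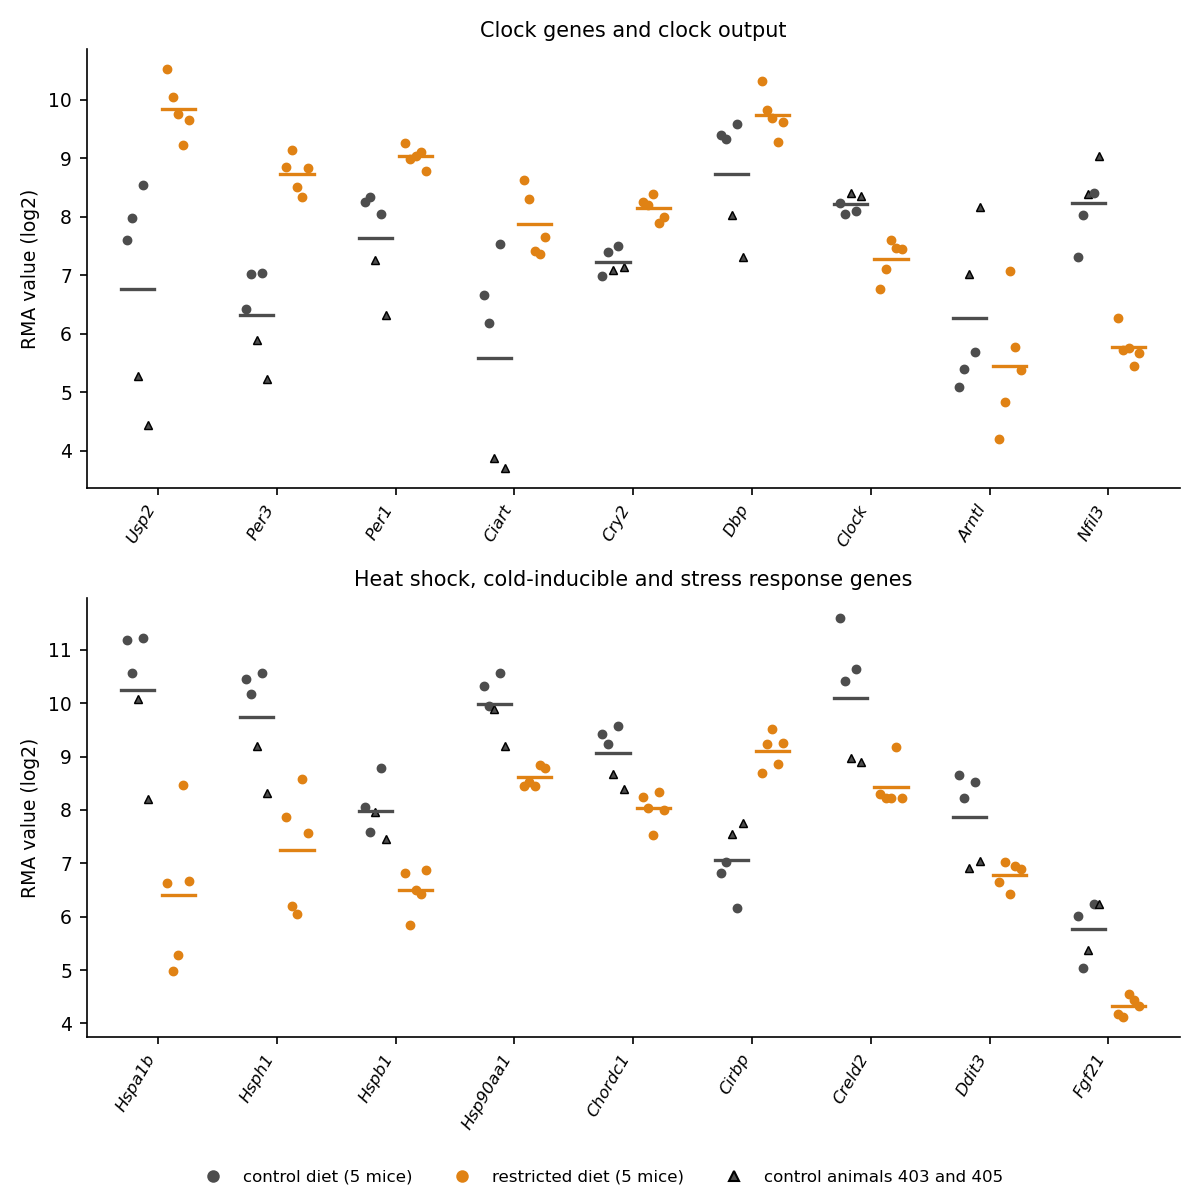
RMA values (log2, vertical) of 9 clock genes (upper) and 9 stress genes (lower) in each wild type animal, with bars at the means of 5 mice and triangles for control animals 403 and 405. The triangles lie at the foot of the control group for Usp2, Ciart, Per1 and Dbp and at its top for Arntl, while the restricted animals lie apart from all controls for Per3, Cry2, Clock and Nfil3.

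Heat shock genes fell under restriction. These chaperones and their helpers are switched on by the factor HSF1, which binds inverted repeats of GAA in the heat shock element. The promoters of 4 genes of the list are shown for that element, searched as GAANNTTC on both strands, from the same RefSeq assembly. Hspa1b holds it 104 bases before its start at chr17:34959305-34959372 on the minus strand, Hsph1 42 bases after its start at chr5:149636287-149636325 on the minus strand, Hspb1 117 and 97 bases before its start at chr5:135887772-135887859 on the plus strand, and Chordc1 from 4 bases before and from 7 bases after its start at chr9:18292233-18292310 on the plus strand. The copies in Hspb1 and Chordc1 lie close to each other.
Hspa1b: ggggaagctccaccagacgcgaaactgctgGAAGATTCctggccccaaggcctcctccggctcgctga
Hsph1: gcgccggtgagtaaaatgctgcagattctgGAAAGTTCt
Hspb1: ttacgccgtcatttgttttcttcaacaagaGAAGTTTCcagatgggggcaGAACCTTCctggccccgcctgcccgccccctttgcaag
Chordc1: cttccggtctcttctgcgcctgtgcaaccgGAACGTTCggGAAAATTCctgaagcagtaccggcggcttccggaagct

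The element was found in 8 of 15 promoters of the heat shock and cold-inducible RNA-binding genes (53.3%) and in 6.4% of all 13605 promoters. Of the 9 promoters whose genes fell, 6 held it.

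Of 19 measured genes of the list 11 fell, 1 rose and 7 did not pass, with a median difference of -0.62. Hspa1b, an inducible HSP70 whose near-identical neighbour Hspa1a may share its probes, read 11.19, 10.56, 10.07, 11.22 and 8.20 in the controls and 6.63, 4.98, 5.28, 8.46 and 6.67 under restriction. This was a fall of 3.84 ± 0.57 (adjusted p = 5.76e-05) with an overlap, since control 405 lay below restricted animal 424. Hsph1, an HSP110, overlapped through the same pair of animals, with 10.45, 10.17, 9.19, 10.56 and 8.32 against 7.86, 6.19, 6.04, 8.57 and 7.56 (-2.50 ± 0.50). The small heat shock protein gene Hspb1 did not overlap, with 8.06, 7.59, 7.96, 8.79 and 7.46 in the controls and 6.82, 5.84, 6.49, 6.43 and 6.88 under restriction (-1.48 ± 0.24).

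The HSP90 gene Hsp90aa1 fell by 1.37 ± 0.24, the co-chaperone genes Dnajb1 and Chordc1 by 1.16 and 1.03, and the constitutive HSP70 gene Hspa8 by 0.85. The probe set of Hspa8 carries a suffix for shared binding, and its only probe set without one showed -0.57 and did not pass (adjusted p = 0.45). The gene of the list that rose was Cirbp, an RNA-binding protein induced by mild cold. It read 6.81, 7.03, 7.55, 6.16 and 7.76 in the controls and 8.69, 9.24, 9.52, 8.86 and 9.25 under restriction (2.05 ± 0.23, adjusted p = 2.86e-06). Cirbp was the only measured member with a positive difference, so Rbm3, a further cold-inducible RNA-binding gene of the list, did not rise with it. The heat shock genes named here thus moved opposite to Cirbp, with the overlap between the diets given above for Hspa1b and Hsph1. Animal 405 had the lowest Hspa1b and the highest Cirbp of the controls. Without animals 403 and 405 the number that fell was 12. The animals' body temperature is not in the labels.

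Some genes of the unfolded protein and integrated stress responses fell. Of 37 measured 11 fell, 2 rose and 24 did not pass. Creld2, an ER chaperone, read 11.59, 10.42, 8.98, 10.63 and 8.90 in the controls and 8.29, 8.23, 8.22, 9.17 and 8.23 under restriction (-1.68 ± 0.40, adjusted p = 0.00422). Ddit3, which encodes the stress factor CHOP, fell by 1.09 ± 0.29, and Fgf21, a hormone of starvation and stress, by 1.45 ± 0.32 from levels of 5.03 to 6.23. Hspa5, the main ER chaperone gene, did not pass (-0.33 ± 0.13, adjusted p = 0.0716), and it passed without control 403 (-0.38, adjusted p = 0.0478), without control 405 (-0.39, adjusted p = 0.0391) and with the Gapdh covariate (-0.38, adjusted p = 0.0342). Selenos rose by 0.45 ± 0.08. Without control animal 401 the number that fell was 7.

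The P450 enzymes of drug metabolism split in both directions. Of 35 measured genes 12 rose, 8 fell and 15 did not pass, and without animals 403 and 405 the number that rose was 7. Among the enzymes outside the sex-biased lists, Cyp2c39 read 8.59, 9.53, 9.47, 8.84 and 9.12 in the controls and 11.25, 11.08, 11.48, 11.47 and 11.34 under restriction (2.21 ± 0.27, adjusted p = 6.77e-06). Cyp2c37 rose by 1.67 ± 0.27 and Cyp2a5 by 1.07 ± 0.28, and without animals 403 and 405 Cyp2a5 no longer passed (0.68, adjusted p = 0.116). Cyp2b10, the classic target of the receptor CAR, was scattered on both diets, with 5.53, 6.52, 5.27, 7.91 and 4.09 against 8.93, 5.29, 7.12, 9.13 and 10.43. Its rise of 2.32 ± 0.70 (adjusted p = 0.0209) was lost under 5 of the 19 alternative settings. Cyp1a2, which metabolises caffeine and sits around the central vein, fell by 1.48 ± 0.28, with controls from 11.83 to 12.33 and restricted animals from 10.02 to 11.10.

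Glutathione and quinone defence genes did not move as a block. Of 30 measured NRF2 target and glutathione genes 8 rose and 6 fell. Nqo1, the quinone reductase that is the usual readout of NRF2, read 5.60, 5.96, 5.71, 5.58 and 5.54 in the controls and 7.34, 7.36, 7.16, 7.27 and 7.16 under restriction (1.58 ± 0.15, adjusted p = 3.21e-07). The carbonyl reductase Cbr1 was about as even within its groups, with 9.56, 9.69, 9.36, 9.63 and 9.58 against 10.93, 10.72, 10.96, 11.03 and 11.02 (1.37 ± 0.09, adjusted p = 4.52e-09). The glutathione transferase genes Gstt3 and Mgst3 rose by 2.21 ± 0.24 and 1.43 ± 0.15. Gclc, which makes the first step of glutathione synthesis, went the other way. It read 11.59, 11.82, 12.01, 11.68 and 11.98 in the controls and 10.78, 10.73, 11.06, 10.81 and 10.86 under restriction (-0.97 ± 0.13, adjusted p = 2.73e-05). Gstp1, a transferase that is higher in male mouse liver, fell by 0.81 ± 0.10.

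Bile acid genes also split. The liver makes bile acids from cholesterol through a classic route that starts with Cyp7a1 and an alternative route that uses Cyp7b1. Of 29 measured genes of synthesis and transport 9 rose, 10 fell and 10 did not pass. Cyp7a1 read 10.42, 7.81, 8.53, 7.50 and 7.71 in the controls and 10.22, 10.89, 11.23, 11.29 and 11.33 under restriction (2.60 ± 0.47, adjusted p = 4.16e-04). Control 401 lay above restricted animal 421, and the other animals were separated. Cyp7b1 read 12.46, 12.06, 12.48, 12.44 and 12.06 against 10.07, 10.64, 10.25, 10.03 and 10.03. Cyp7a1 and Cyp7b1 thus moved in opposite directions.

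Akr1d1, the reductase shared by both routes, rose by 0.91 ± 0.08 (adjusted p = 5.62e-08). Among the transporters Slco1a4 read 8.79, 9.37, 8.35, 8.91 and 9.08 in the controls and 11.32, 11.56, 11.33, 11.38 and 11.47 under restriction (2.51 ± 0.21). It rose where its male-biased relative Slco1a1 fell. The basolateral exporter subunit Slc51b rose by 1.45 ± 0.20 and the main bile acid importer Slc10a1 by 0.58 ± 0.06. Slc10a2, the sodium-dependent uptake carrier of ileum and bile duct, fell by 2.42 ± 0.36, and the 6 measured bile duct markers gave 0 calls and lay between 3.63 and 3.82 on average in the restricted livers. Slc22a7, an organic anion transporter outside the list, fell by 3.26 ± 0.26 from levels of 10.67 to 10.89. Nr0b2, a repressor of Cyp7a1 known as SHP, fell by 1.17 ± 0.41 (adjusted p = 0.0463) and missed the threshold under 13 of the 19 alternative settings.

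Genes of fat synthesis rose in part. Of 32 measured 8 rose, 2 fell and 22 did not pass, and a fit of the wild type arrays alone gave 14 rises. Pgd, which makes NADPH in the pentose phosphate pathway, read 9.19, 9.01, 9.48, 9.09 and 9.80 in the controls and 10.68, 10.52, 11.32, 11.40 and 10.61 under restriction (1.59 ± 0.26, adjusted p = 1.44e-04). Pnpla3, a lipase of lipid droplets that follows SREBP1, read 4.79, 4.66, 4.87, 5.36 and 7.36 against 8.46, 6.93, 7.13, 8.18 and 9.54 (2.64 ± 0.69). Its relative Pnpla5 rose by 1.62 ± 0.32. For both genes control 405 stood apart from the other controls and lay among or close to the restricted animals.

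Acaca, the carboxylase that commits carbon to fat, rose by 1.12 ± 0.30 and Pklr, the liver pyruvate kinase, by 1.07 ± 0.25, both without overlap. Fasn, the fatty acid synthase, read 10.47, 10.28, 10.97, 11.03 and 12.19 in the controls and 12.35, 11.64, 11.84, 12.40 and 12.37 under restriction. The difference of 1.13 ± 0.48 did not pass (adjusted p = 0.0997). It passed without control 405 (1.43, adjusted p = 0.0391) and in a fit of the wild type arrays alone (adjusted p = 0.0206). Scd1, a desaturase, read 13.60 to 13.95 in the controls and 13.82 to 13.97 under restriction (adjusted p = 0.648), near the top of the scale. Its dimmer second probe set rose by 1.49, from a mean of 9.72 to a mean of 11.2 (adjusted p = 0.0303).

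In cholesterol synthesis and sterol control 3 of 26 genes rose and 1 fell, a share of 15.4% beside the 22.5% of all genes. Without animals 403 and 405, a choice made after the data were seen, the number that rose was 7. Lss, the lanosterol synthase, rose by 1.81 ± 0.37, with controls from 5.69 to 7.36 and restricted animals from 8.09 to 8.58. Sqle, the step before it, read 6.38, 4.83, 8.66, 5.55 and 8.88 in the controls, with 403 and 405 again the highest, and 7.36 to 9.33 under restriction (adjusted p = 0.205), and it passed without them (2.61, adjusted p = 0.00696).

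Genes of fat storage and of fatty acid burning held more falls than rises. Of 28 measured genes of fat uptake and lipid droplets 10 fell and 5 rose, and of 29 genes of fatty acid oxidation and PPAR-alpha 9 fell and 2 rose (1 rose without control animal 404 or 405 or restricted animal 425). Plin2, the coat protein of liver lipid droplets, read 12.61, 12.69, 12.92, 12.30 and 12.71 in the controls and 11.54, 11.22, 11.07, 11.42 and 11.14 under restriction (-1.37 ± 0.17, adjusted p = 9.18e-06). Fitm1, a protein of droplet formation, read 8.05, 8.27, 9.06, 8.52 and 8.35 against 6.51, 6.39, 5.96, 6.45 and 5.69 (-2.25 ± 0.18, adjusted p = 2.72e-08). Both genes were lower in every restricted liver than in any control. Creb3l3, a fasting factor that works with PPAR-alpha, fell by 1.11 ± 0.12, Cpt2, of the mitochondrial carnitine shuttle, by 0.69 ± 0.09, and Slc27a2, which activates very long chain fatty acids, by 0.38 ± 0.07.

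Rises in the same lists were Vldlr, a lipoprotein receptor (1.69 ± 0.26), Cd36, a fatty acid carrier that is higher in female liver (0.94 ± 0.20), and Apoa4, an apolipoprotein of fasting (1.66 ± 0.22). Cyp4a10, a PPAR-alpha target that is also on the female-biased list, read 11.42, 11.32, 12.28, 9.92 and 10.06 in the controls and 12.61, 12.92, 12.83, 13.11 and 12.90 under restriction (1.87 ± 0.41). Of 11 thioesterases 2 rose, Acot3 and Acot13 (0.46 ± 0.10), and 2 fell (1 fell without control 402 or 403 or restricted animal 424, and with median centring). Acot1 (-0.35 ± 0.26) and Acot2 (-0.34 ± 0.24), which are close relatives of Acot3 and targets of PPAR-alpha, did not pass.

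**Figure D4:**
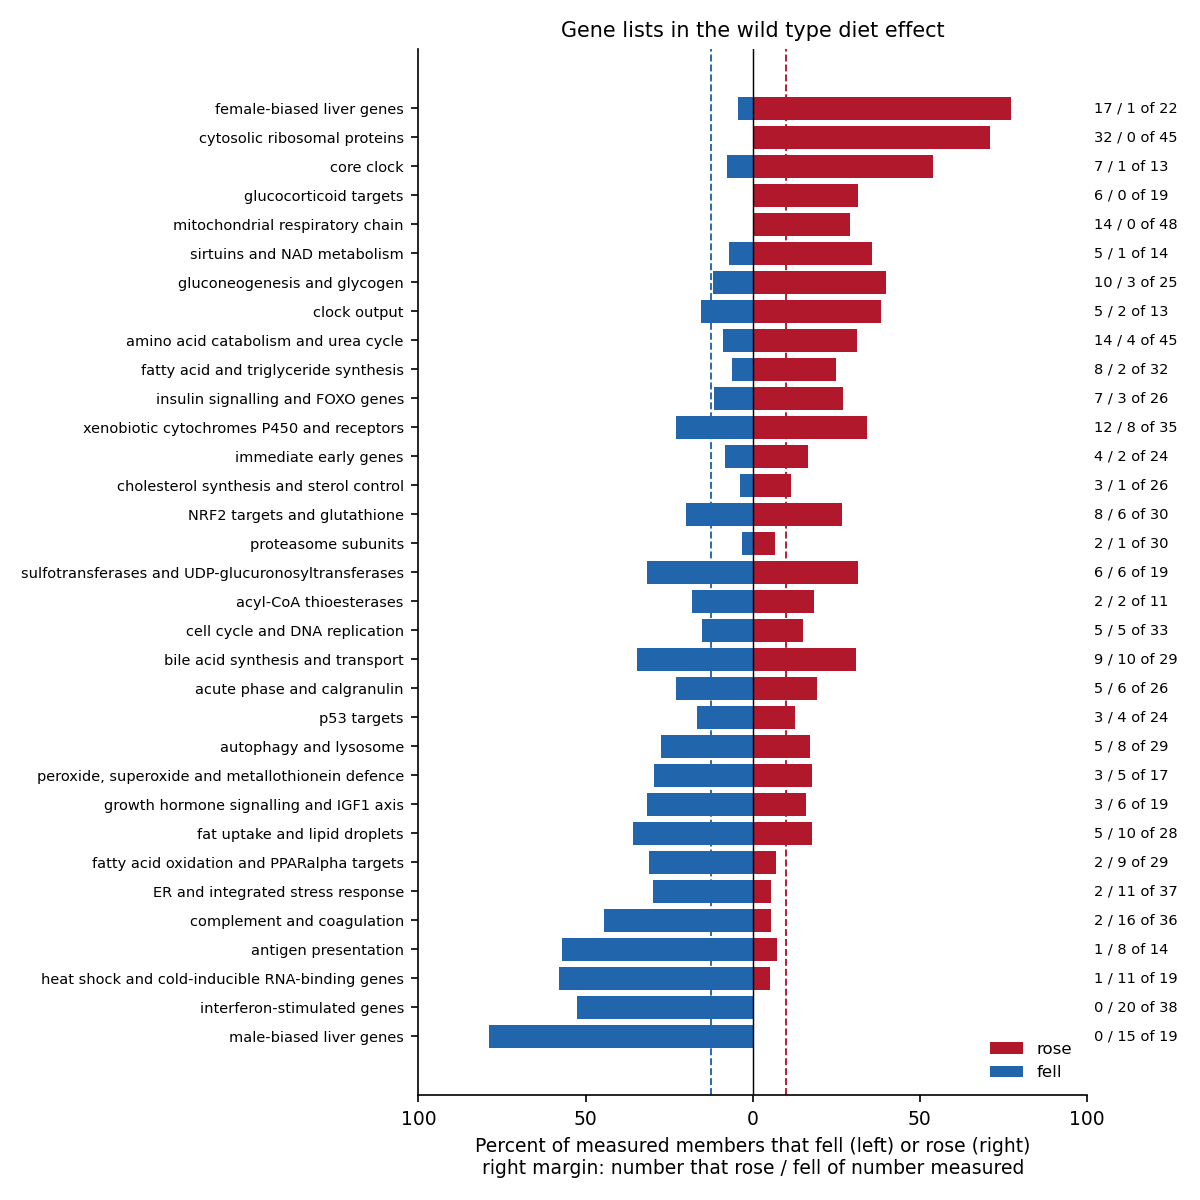
Percent of the measured members of 33 gene lists that rose (right, red) or fell (left, blue) in the wild type diet effect; dashed lines mark the shares over all 17097 genes, 9.92% and 12.6%. The male-biased, interferon-stimulated, heat shock and antigen presentation lists reach furthest to the left, and the female-biased, ribosomal protein and core clock lists furthest to the right.

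Sugar metabolism held falls of single genes and rises of others. Of 25 measured genes of gluconeogenesis and glycogen 10 rose and 3 fell. The list also holds genes of glycolysis and fructose use, such as Pklr and Khk. Its largest rise was that of Pklr, given above with fat synthesis (1.07). G6pc, the last enzyme of glucose release, read 12.23, 12.66, 12.49, 11.59 and 12.78 in the controls and 10.19, 10.35, 10.78, 12.18 and 10.56 under restriction (-1.54 ± 0.32, adjusted p = 0.00138). Restricted animal 424 lay with the controls, and control 404 was the lowest of its group. Ppp1r3c, which targets a phosphatase to glycogen, fell by 1.67 ± 0.28, from levels of 10.35 to 11.41 down to levels of 8.68 to 9.74. The glucose transporter Slc2a2 rose by 0.41 ± 0.07. The probe set of Pck1, the entry enzyme of gluconeogenesis, lay at the floor of the array (2.93 to 3.26 in the controls), although liver is known to hold much of this RNA, and its rise of 0.66 ± 0.15 has little weight.

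Amino acid breakdown held more rises than falls, while most of its genes did not pass. Of 45 measured genes 14 rose, 4 fell and 27 did not pass, and the rises ran up to 1.06. Prodh, the first enzyme of proline breakdown, read 10.29, 10.58, 10.12, 10.50 and 10.63 in the controls and 11.54, 11.57, 11.54, 11.25 and 11.53 under restriction (1.06 ± 0.11, adjusted p = 1.55e-06). The urea cycle genes that rose included Asl by 0.89 ± 0.10, Ass1 by 0.57 ± 0.11 and Arg1 by 0.30 ± 0.06. Mat1a, which makes S-adenosylmethionine, rose by 0.60 ± 0.07, and the alanine transaminase gene Gpt2 by 0.44 ± 0.08. Kmo, of the kynurenine route, fell by 0.48 ± 0.07.

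Targets of the glucocorticoid receptor gave 6 rises and 0 falls of 19 measured, and 13 did not pass. Without animals 403 and 405 the numbers were 4 and 1. Mt1, a metallothionein that also answers to zinc, read 9.26, 10.17, 9.60, 8.47 and 8.18 in the controls and 11.76, 12.10, 13.18, 12.73 and 13.08 under restriction (3.44 ± 0.51, adjusted p = 5.37e-05). Its second, dimmer probe set showed 0.93 and did not pass alone. Fkbp5, a chaperone that feeds back on the glucocorticoid receptor, read 8.62, 8.58, 7.48, 8.84 and 6.66 in the controls and 10.17, 9.92, 10.07, 10.11 and 9.26 under restriction (1.87 ± 0.33). Both genes were higher in each restricted animal than in any control.

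Lcn2, a siderophore-binding acute phase protein, rose by 2.06 ± 0.25 and the transcription factor Zbtb16 by 1.52 ± 0.44. Zbtb16 no longer passed without control animal 403 (1.23, adjusted p = 0.0506) or without 403 and 405 (0.78, adjusted p = 0.201). Tsc22d3, also known as GILZ, did not follow (-0.68 ± 0.26, adjusted p = 0.0711), and it fell without control 403 (-0.85, adjusted p = 0.0273). Sult1e1, described above, and Per1 are on this list too. Lepr, the leptin receptor, is no member of it and was among the 12 largest rises. It read 6.03, 6.19, 3.98, 4.74 and 5.96 in the controls and 8.66, 9.49, 10.22, 9.24 and 9.00 under restriction (3.94 ± 0.49, adjusted p = 8.09e-06), and 3 of its 4 probe sets rose.

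Many immune genes fell. Of 38 measured interferon-stimulated genes 20 fell and 0 rose. Rsad2, an antiviral enzyme, read 6.67, 6.85, 7.83, 7.14 and 7.05 in the controls and 5.85, 5.33, 5.13, 5.86 and 5.91 under restriction (-1.49 ± 0.19, adjusted p = 1.21e-05). The immunity GTPases Igtp and Iigp1 fell by 1.03 ± 0.18 and 0.76 ± 0.11. The antiviral Ifit1 fell by 1.07 ± 0.31, a call lost without control animal 403 (-0.88, adjusted p = 0.0519), without restricted animal 423 (-0.78, adjusted p = 0.0513) and without 403 and 405 (-0.92, adjusted p = 0.0734). Of 14 antigen presentation genes 8 fell and 1 rose, and without suffixed probe sets 4 fell. A suffix may mark a match to several transcripts of the same gene or to other genes. H2-Eb1, a chain of MHC class II, read 8.27, 7.85, 7.82, 7.93 and 7.37 against 6.75, 5.94, 5.42, 5.91 and 5.91 (-1.86 ± 0.29), and the further class II genes H2-Ab1 and H2-Aa and the invariant chain Cd74 fell by 1.69, 1.51 and 1.13. Nlrc5, the activator of MHC class I genes, rose by 0.94 ± 0.16.

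Class II genes are made mainly by macrophages, dendritic and B cells. Dendritic cell markers were not listed. Of 15 Kupffer cell and macrophage markers 4 fell and 0 rose, so 26.7% fell beside 12.6% of all genes. Among them were Folr2 (-0.98 ± 0.20), Adgre1 (-0.94 ± 0.14) and Clec4f (-0.72 ± 0.13). Over the alternatives the number that fell ranged from 2 without suffixed probe sets to 7, as without control animal 405. The differences of the 15 markers ran from -0.98 to 0.85, with 2 of them positive, and 1 marker rose without restricted animal 421. The mean level of the 15 lay between 7.97 and 8.41 in the controls and between 7.57 and 8.09 under restriction. Ptprc, which encodes CD45 of all white blood cells, fell by 0.67 ± 0.14. Of 19 lymphocyte markers 5 fell, and 18 of them had control means under 5. Of 14 endothelial markers 1 fell (2 without control 403 or restricted animal 421). Of 11 neutrophil and monocyte markers, 10 of them with control means under 5, 2 fell (1 without control 401 or restricted animal 421 or 425). In whole liver fewer cells of a type and less RNA per cell cannot be told apart, and the part of cell numbers in the fall of the immune genes was not tested.

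Many complement genes fell as well. Of 36 measured complement and coagulation genes 16 fell and 2 rose. The list holds C1qa, C1qb and C1qc, which are also on the macrophage list, and C1qb is among the falls of both. The deepest falls were in the pore-forming terminal pathway. C8a read 12.41, 12.62, 12.52, 12.48 and 12.41 in the controls and 9.42, 10.05, 9.73, 9.59 and 9.28 under restriction (-2.87 ± 0.21, adjusted p = 1.17e-08). C8b fell by 2.57 ± 0.18 and C9 by 2.01 ± 0.14. With C6, 4 genes of the pore were thus at least 4-fold lower with no overlap. The 16 hepatocyte markers gave 2 rises and 1 fall, a share of 18.75% beside the 22.5% of all genes. They gave 1 rise when any single animal among controls 402 to 405 or restricted animals 422 to 425 was left out. Mbl1, a lectin that starts another complement route, fell by 0.98 ± 0.09.

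The acute phase genes split, with 6 falls and 5 rises among 26, and with 3 of each without suffixed probe sets. Saa1 and Saa2, the serum amyloids, fell by 2.46 ± 0.41 and 2.60 ± 0.48. Saa1 read 9.80, 9.25, 9.62, 9.27 and 9.32 in the controls and 8.80, 6.26, 6.26, 6.02 and 7.62 under restriction, where animal 421 stayed near the controls. The pentraxin Apcs rose by 1.18 ± 0.14, the hepcidin gene Hamp2, which is higher in female liver, by 1.83 ± 0.24, and Orm3 by 1.47 ± 0.25. The bright probe set of Hamp2 carries a suffix that marks possible binding to related genes such as Hamp, and its second probe set (0.18) did not pass.

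Ribosomal protein genes rose together by a small amount. All 45 measured had a positive difference, 32 rose and 13 did not pass, with a median of 0.23 and a range from 0.09 to 0.51. Rpl3 read 12.30, 12.33, 12.19, 12.30 and 12.35 in the controls and 12.66, 12.64, 12.71, 12.61 and 12.61 under restriction (0.35 ± 0.06, adjusted p = 3.13e-04). Rpl32 rose by 0.41 ± 0.08 and Rpl12 by 0.51 ± 0.10. Many ribosomal probe sets carry a suffix, and without such probe sets the number that rose was 7. The suffix on the probe sets of Rpl3 and Rpl12 marks several transcripts of the same gene, and that of Rpl32 has none. With each array centred on its median the number was 35.

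Of 48 respiratory chain genes 14 rose and 0 fell, Sdhd most (0.46 ± 0.08). The number was 9 without restricted animal 423 and 6 without control animals 403 and 405. Of 30 proteasome genes 2 rose and 1 fell, a share of 10% beside the 22.5% of all genes. Leaving out 1 animal gave 1 rise (without control 401, 403 or 404 or restricted animal 421, 423, 424 or 425) and from 0 falls (without 401, 422, 423 or 425) to 3 (without 424). Cell cycle genes gave 5 rises and 5 falls of 33, a share of 30.3% beside the 22.5% of all genes. Of the 33 genes 19 had control means under 5. The falls numbered 3 without control 402 or 403 or restricted animal 422 or 425. They numbered 2 without animals 403 and 405 and 8 with the mean of probe sets. The replication gene Rrm2 rose by 0.91 ± 0.24, while E2f8, which makes hepatocytes polyploid, fell by 1.29 ± 0.32 and the cyclin gene Ccnd1 by 1.27 ± 0.33. Of 29 autophagy and lysosome genes 8 fell and 5 rose, and without animals 403 and 405 these numbers were 5 and 3. Ulk2, a kinase that starts autophagy, fell by 1.33 ± 0.14, and the lysosomal protease gene Ctsl rose by 0.45 ± 0.08, which did not pass without suffixed probe sets (0.33, adjusted p = 0.151). Among 14 genes of sirtuins and NAD metabolism 5 rose, Nnmt, which methylates nicotinamide, most (1.05 ± 0.20).

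Several of the largest changes belong to none of these groups. Nipal1, a magnesium transporter, read 4.80, 5.71, 6.10, 6.03 and 6.37 in the controls and 9.48, 9.72, 9.82, 9.94 and 9.65 under restriction (3.92 ± 0.39, adjusted p = 5.80e-07). Slc16a5, a monocarboxylate carrier, rose by 3.57 ± 0.26, from levels of 3.62 to 4.76 up to levels of 7.19 to 8.45. Spsb4, a ubiquitin ligase adaptor, read 6.75, 7.92, 7.25, 7.67 and 7.71 in the controls and 5.19, 3.68, 3.94, 3.79 and 4.22 under restriction (-3.29 ± 0.37). The falls of Clec2h (-2.92 ± 0.55), Nrep (-2.77 ± 0.39) and Keg1 (-2.73 ± 0.29) were the next in size outside the lists after that of Slc22a7, all without overlap. The elastase gene Cela1 fell by 2.0 ± 0.17 on the log2 scale from levels of 10.27 to 10.67, while the other 9 measured acinar markers gave 0 calls and control means under 5. Of 5 measured erythroid markers 1 fell, 1 rose and 3 did not pass, the globin genes Hba-a1 and Hba-a2 among the latter. Alas2, of haem synthesis in red cells, fell by 1.72 ± 0.19 and Tfrc, the transferrin receptor, rose by 1.47 ± 0.28.

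The diet effect of the progeroid livers was set against that of the wild type livers by an interaction term. The difference passed for 240 genes (1.4%), with the progeroid effect above the wild type effect in 176 (1.03%) and below it in 64 (0.374%). The count was 103 without restricted wild type animal 423, 138 without control 401, 148 without control 403, 149 without restricted animal 424 and 490 without restricted animal 421, so its size rests on single animals. In 2430 genes the unadjusted p of the difference was below 0.05. Within progeroid livers 1186 genes rose (6.94%) and 867 fell (5.07%).

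Of the male-biased genes 6 of 19 differed between the genotypes, and of the female-biased genes 4 of 22. Cyp4a12a read 9.82, 11.11, 10.79, 11.22 and 10.47 in progeroid controls and 5.92, 6.45, 5.56, 8.48 and 6.43 in restricted progeroid mice. That effect of -4.12 ± 0.38 was smaller than the -7.91 of wild type mice, a difference of 3.80 ± 0.54 (adjusted p = 0.00192). For Hsd3b5 the difference was 3.55 ± 0.77 and for Elovl3 2.18. Serpina4-ps1 fell alike in size in both, by 4.98 in progeroid and by 5.02 in wild type livers, with a difference of 0.04 (adjusted p = 0.986).

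Cyp2b13 read 3.26 to 3.59 in progeroid controls and 3.92, 3.64, 5.72, 3.70 and 4.14 under restriction. Its effect there was 0.77 ± 0.46 and that of wild type mice was 4.52, a difference of -3.75 ± 0.65 (adjusted p = 0.00747). Sult1e1 was already high in progeroid controls, at 6.13 to 8.83 against 4.27 to 4.57 in wild type controls, and its diet effect of 1.77 differed from the wild type one by -3.84 ± 0.72 (adjusted p = 0.0113). For Cyp17a1 the difference was -3.15 ± 0.70. For Cyp2b9 the progeroid effect was 4.04, and the difference of -3.0 did not pass (adjusted p = 0.0821).

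Of 28 genes of fat uptake and lipid droplets 3 differed between the genotypes, as did 7 of 29 fatty acid oxidation genes and 3 of 11 thioesterases. Of the 29 oxidation genes 8 rose and 0 fell in progeroid livers. Fitm1 read 8.50, 8.53, 7.82, 8.29 and 8.30 in progeroid controls and 8.11, 7.82, 7.95, 8.07 and 7.85 under restriction, an effect of -0.33 ± 0.18. The fall seen in wild type livers was larger by 1.92 ± 0.25 (adjusted p = 6.45e-04). The difference of Plin2 (1.16 ± 0.24) ran the same way, as did that of Creb3l3 (1.09 ± 0.16), which is on the fatty acid oxidation list. Spc25, a kinetochore protein, fell in wild type livers from levels of 6.99 to 7.65 down to levels of 4.94 to 6.04 (-1.90 ± 0.20), while progeroid livers read 6.80 to 7.62 and 7.25 to 8.05, a difference of 2.40 ± 0.28 (adjusted p = 1.89e-04). Mfsd2a, a lipid transporter of fasting, showed 0.19 ± 0.41 in wild type and 2.80 ± 0.41 in progeroid livers (difference 2.61 ± 0.58). Tfrc rose in wild type livers and showed -0.28 ± 0.28 in progeroid livers (difference -1.76 ± 0.39). No core clock, clock output, heat shock or ER stress gene passed the test of the difference.

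**Figure D5:**
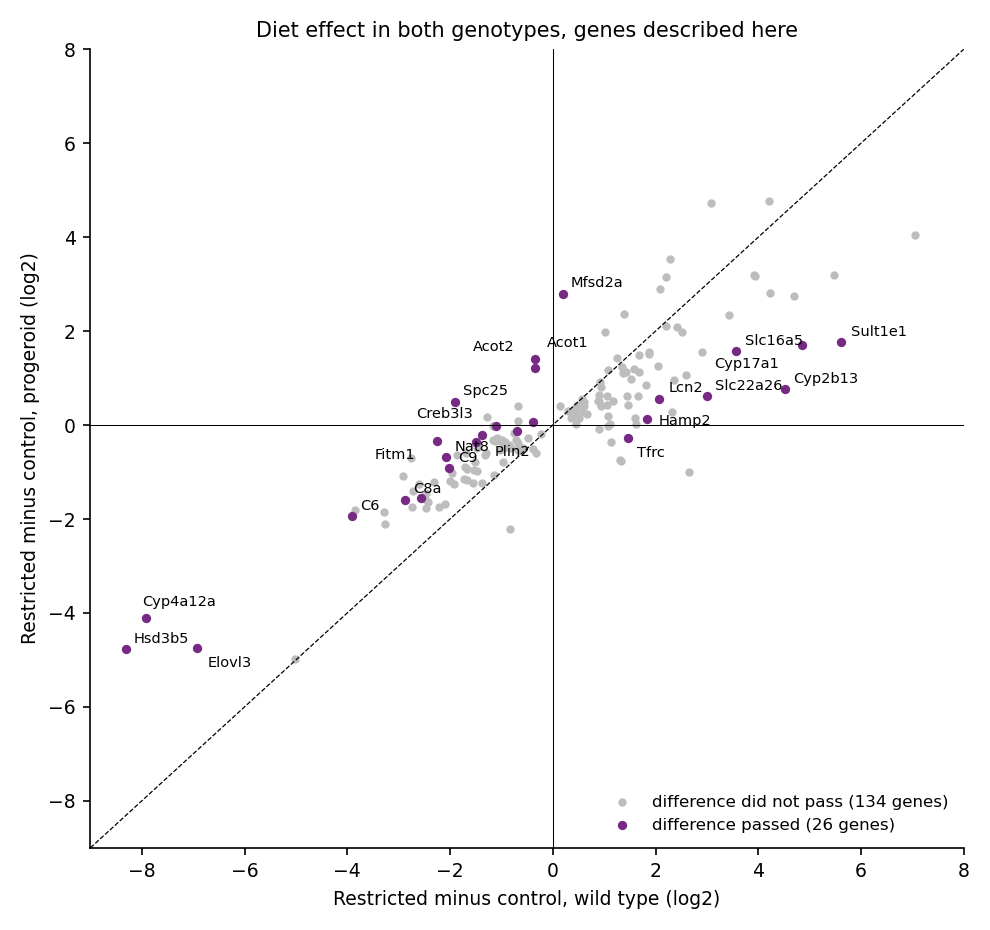
Diet effect (restricted minus control, log2) in wild type (horizontal) and progeroid livers (vertical) for the 160 genes described here; purple points are the 26 whose difference between genotypes passed at an adjusted p below 0.05, and the dashed line marks equal effects. Hsd3b5, Cyp4a12a and Elovl3 at the lower left and Sult1e1 and Cyp2b13 at the right lie nearer to zero in progeroid than in wild type livers.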

How the data were processed

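Total RNA of whole liver was measured on Affymetrix mouse arrays in 20 mice, 5 in each of 4 groups taken from the sample names. The deposited table holds log2 values made by the authors with RMA, per the submitters' processing notes, of unstated version. RMA sets all arrays to 1 distribution and so removes an overall shift between groups. Of 45141 probe sets, 28898 carried 1 gene symbol in the platform annotation, 551 several and 15588 none, and 104 controls were left out. A gene was read from its probe set with the highest mean.

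Each gene was modelled by its 4 group means over the 20 arrays (limma 3.58.1, R 4.3.3, empirical Bayes moderation on 16 residual degrees of freedom), with Benjamini-Hochberg adjustment over 17097 genes and a threshold of 0.05. The script was tested on simulated data. The number of arrays limits the precision. Alternatives were the wild type arrays alone, trend and robust moderation, array weights, median centring, a minimum mean of 5, the mean of probe sets, no suffixed probe sets, every probe set, the Gapdh difference as covariate, leaving out each wild type array, and leaving out controls 403 and 405, the last added after seeing the data.

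The 45 gene lists and the genes followed were chosen with earlier results of these data known, and 158 list entries were not measured. Named genes are the 12 largest rises and falls without overlap and without provisional symbols, the 4 smallest adjusted p of each list, the 5 largest differences between genotypes in each direction, Ercc1, and members of counted lists. Which of these are printed was chosen after their values were seen.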

Additional observations from a re-analysis of the deposited data

Results flagged for a closer look

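In groups of 5 animals, 15 of 320 sets of values for the genes named here had 1 animal far from the other 4 (gap over range above 0.71), and chance gives about 1 in 20. On the control diet these were animal 402 for Cyp2b9 (7.16) and Rrm2 (5.39), animal 403 for Akr1d1 (10.68), animal 404 for Slco1a1 (12.72), and animal 405 for Pnpla3 (7.36), Pnpla5 (5.56), C9 (13.14) and Keg1 (11.08). On the restricted diet they were animal 421 for Ulk2 (8.29), animal 423 for Sult3a1 (6.41) and Igfbp2 (12.6), animal 424 for Cux2 (7.61), Creld2 (9.17) and Prodh (11.25), and animal 425 for Fkbp5 (9.26). None of these values lay inside the range of the other diet except Pnpla3 and Pnpla5 in animal 405 and Creld2 in animal 424.

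The diet effect differed between genotypes, by the interaction term, for 26 of the 160 genes named here. The progeroid minus wild type difference was positive for Hsd3b5 (3.55), Cyp4a12a (3.80), Elovl3 (2.18), C6 (1.97), Nat8 (1.40), Plin2 (1.16), Fitm1 (1.92), Cpt2 (0.56), Creb3l3 (1.09), Slc27a2 (0.44), Acot1 (1.76), Acot2 (1.55), Rsad2 (1.13), C9 (1.09), C8a (1.29), C8b (1.02), Mfsd2a (2.61) and Spc25 (2.40). It was negative for Sult1e1 (-3.84), Cyp17a1 (-3.15), Cyp2b13 (-3.75), Slc22a26 (-2.38), Lcn2 (-1.50), Hamp2 (-1.69), Slc16a5 (-2.0) and Tfrc (-1.76). The genes with a positive difference fell in wild type livers, apart from Acot1, Acot2 and Mfsd2a, which did not pass there, and all 8 with a negative difference rose. Many genes were named for a large wild type change, which enters the difference with the opposite sign, so these directions are partly set by the choice.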

How the results depend on the processing

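Leaving out 1 wild type animal gave 1393 to 1651 rises, 1758 to 2152 falls and 103 to 490 genes whose diet effect differed between genotypes. The Gapdh gap ranged from 0.079 to 0.153. Testing every probe set gave 2851 rises, and centring each array on its median gave 1924 rises and 1688 falls. The count of genes that differed between genotypes was 363 with array weights and 137 with the Gapdh covariate. Of the 160 genes named here 149 passed, 132 of them under each alternative that gave them a value (99 had a value under all 19, while genes with only suffixed probe sets or a mean under 5 had 18); the other 17 missed the threshold under at least 1, and 0 changed sign. Among the 11 that did not pass, Arntl turned to 0.06 without controls 403 and 405, Mfsd2a to -0.07 without restricted animal 421 (up to 0.39 when another animal was left out), and Acot2 to 0.25 without suffixed probe sets. The cause was not tested. No paired analysis was possible because the groups share no animal numbers.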
